A study of Homo sapiens with 2 samples.

Results

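Isolated single intergenic calls are called transcription start positions that lay outside every annotated gene, more than 1000 bp from every outer gene end, and with no other call of either strand within 10 kb. In wild-type HUDEP-2 cells 443 of the 26332 calls on chromosomes 1 to 22 and X met this rule (1.68%, 95% Wilson interval 1.53 to 1.85). They made up 443 of 1583 intergenic calls (28.0%, 25.8 to 30.2), and the other 1140 intergenic calls, which had at least 1 call within 10 kb, serve as the comparison. The calls come from PRO-cap, which sequences capped 5' ends of RNA that polymerases extend in isolated nuclei, here those of HUDEP-2, an immortalised line of human erythroid progenitors with no treatment or edited gene. The labels give 2 biological replicates of this 1 group, and the deposited lists name no replicate. Each call is a 1-base position with a strand and no read count, so that the depth behind a call is unknown, no spread between replicates can be given, and all intervals cover counting error only. Positions are hg38, counted from 1.

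RNA polymerase II starts transcription at promoters and also at enhancers, where short, unstable RNAs usually leave in both directions from neighbouring start sites. Nascent RNA assays detect such starts whether or not the RNA is stable. Genes can also have alternative promoters upstream of their annotated start, and many long noncoding RNAs and primary microRNA transcripts start outside protein-coding genes. The class of transcript behind a call was not tested.

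Sequence around the calls themselves was not used here. Mature microRNAs and annotated promoters from RefSeq (GRCh38.p14) are shown where an isolated call points at them. Of the 443 isolated calls, 7 had the hairpin of a microRNA gene within 10 kb ahead of them on the same strand (1.58%, 0.767 to 3.23), with 9 microRNA genes in all. Of the 1140 other intergenic calls, 5 did (0.439%, 0.187 to 1.02). The call with most such genes lay at 55176519 of chromosome 5 on the reverse strand, 3342 bp beyond the 5' end of CDC20B, a gene of multiciliated cells. MIR449C, MIR449B and MIR449A lie inside CDC20B and began 4.17, 5.78 and 5.90 kb ahead of the call. The mature 5p forms are printed 5' to 3' with the seed, bases 2 to 8, in capitals:
hsa-miR-449a: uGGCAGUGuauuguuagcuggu
hsa-miR-449b-5p: aGGCAGUGuauuguuagcuggc
hsa-miR-449c-5p: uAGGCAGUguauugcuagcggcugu
The first and second share 1 seed, and the seed of the last is shifted by 1 base in this annotation. The nearest other call was 131 kb away, so that no other start was called within that distance of this one. The remaining hairpins were MIR135A1, 5.80 kb ahead of a reverse call at 52300111 of chromosome 3 and inside GLYCTK, MIR378F, 8.80 kb ahead of a forward call at 23920269 of chromosome 1, and MIR3916, MIR10226, MIR3679 and MIR3202-2. Mature forms of MIR135A1, MIR378F and MIR3679 are shown in the same way:
hsa-miR-135a-5p: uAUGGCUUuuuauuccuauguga
hsa-miR-378f: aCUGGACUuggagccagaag
hsa-miR-3679-5p: uGAGGAUAuggcagggaagggga
No seed among these equals another or one of the miR-449 group.

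Where the nearest gene was protein-coding and its strand was known, 33 of 146 isolated calls lay beyond its 5' end and on its own strand (22.6%, 16.6 to 30.04), at a median of 12.4 kb from the gene, and 164 of 498 other intergenic calls did (32.9%, 28.9 to 37.2). The 33 isolated calls belonged to 32 genes. The closest was at MGAT5, which encodes a glycosyltransferase that branches N-glycans. The forward call at 134118682 of chromosome 2 lay 1253 bp outside the gene, and the nearest other call was 799.5 kb away. MIR3679 lies inside MGAT5, 8.44 kb ahead of the same call. The annotated promoters of MGAT5 and CDC20B held no call, which the rule fixes, since they lie within 10 kb of the isolated call. PRKAR2B encodes a regulatory subunit of protein kinase A and had 3 isolated calls upstream, each more than 10 kb away. Its promoter was thus free to hold calls, and held them on both strands. The windows run from 250 bases before to 50 after the annotated start, on the gene's strand. Capitals mark a match to CCAAT on either strand or a called base:
MGAT5 (chr2:134119685-134119984, forward): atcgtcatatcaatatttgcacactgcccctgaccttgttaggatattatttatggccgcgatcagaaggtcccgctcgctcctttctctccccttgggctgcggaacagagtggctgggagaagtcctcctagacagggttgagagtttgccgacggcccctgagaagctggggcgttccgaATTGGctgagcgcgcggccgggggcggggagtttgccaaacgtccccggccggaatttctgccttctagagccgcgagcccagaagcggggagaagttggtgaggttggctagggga
CDC20B (chr5:55173128-55173427, reverse): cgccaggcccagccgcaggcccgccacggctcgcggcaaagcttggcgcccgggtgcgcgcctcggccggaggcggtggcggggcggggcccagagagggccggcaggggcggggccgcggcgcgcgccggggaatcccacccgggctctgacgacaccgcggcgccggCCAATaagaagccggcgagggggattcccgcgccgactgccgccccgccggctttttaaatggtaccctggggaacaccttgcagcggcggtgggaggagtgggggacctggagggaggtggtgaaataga
PRKAR2B (chr7:107044455-107044754, forward): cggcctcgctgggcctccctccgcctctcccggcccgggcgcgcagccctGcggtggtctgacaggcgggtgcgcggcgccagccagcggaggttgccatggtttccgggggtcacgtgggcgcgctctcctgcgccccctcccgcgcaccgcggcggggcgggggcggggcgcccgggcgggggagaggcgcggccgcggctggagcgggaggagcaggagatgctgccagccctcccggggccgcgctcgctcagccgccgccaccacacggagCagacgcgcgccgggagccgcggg
The windows of MGAT5 and CDC20B each held 1 CCAAT match, starting 67 and 81 bases before the annotated start. That of PRKAR2B held none, and its capitals are a reverse call 200 bases before the start and a forward call at base 27 of the gene.

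Of these 32 genes, 26 had a window at their outer 5' end in the promoter table. TATAAA on either strand was in 1 of the 26 windows (3.85%), that of the RNA-binding protein gene RBMX, against 10.03% of the windows of 13792 protein-coding genes. Among those with a called start it was 5.13%, and among those without 14.3%. In the 40 bases before the start, on the gene's strand, TATAAA was in 3.85% of the 26 windows and 4.02% of all. These shares were not tested. CCAAT on either strand was in 13 (50%), against 37.1% of all. CCGCCC on either strand was in 15 (57.7%), against 58.5% of all, and AGATAA in 1 (3.85%), against 7.69%. None of these motif shares was tested. The median GC content was 61.7%, from 42.3% at CCDC178 to 81.7% at PRKAR2B, against 62.7% over all windows. The median number of CpG dinucleotides was 20.5 per window in these and 22 over all. A motif match describes these letters in this window only.

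Of the 33 upstream calls, 12 lay within 10 kb of their gene, and by the rule none of these genes could have a call at that end. Besides MGAT5 and CDC20B they stood at KRT75, a keratin of the hair follicle (1957 bp), EHF, an epithelial ETS factor (3739 bp), ZNF683, a transcription factor of tissue-resident lymphocytes (3972 bp), BCAS4 (4006 bp), SPDEF, another epithelial ETS factor (4295 bp), the zinc finger gene ZNF77 (5681 bp), C5AR1, a receptor for complement C5a (7199 bp), PKP1, a plakophilin of desmosomes (7987 bp), MAP1LC3BP1 and LOC124900189. A gene was counted as having a called start where a call within 500 bp of either outer end ran into it. None of the 12 genes had one. Calls at GPR132 and KRT2 lay just beyond 10 kb. Of the 19 calls more than 10.5 kb away, where the rule leaves the gene's start free, 13 were at a gene with one (PRKAR2B counting for a pair of calls), among them MYB, PRKAR2B, ITPKB, an inositol phosphate kinase, GNA12, a G protein alpha subunit, CPEB4, which binds the poly(A) regulatory elements of mRNAs, and HNRNPLL, a splicing regulator. In all, 41.4% of protein-coding genes had a called start. The nearest gene, where protein-coding, had one for 82 of 186 isolated calls (44.1%). For genes more than 10.5 kb away this was 45 of 75 isolated calls (60%, 48.7 to 70.3) and 85 of 134 other calls (63.4%).

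The keratin cluster of chromosome 12 held a second such call. The reverse calls at 52436328, beyond the 5' end of KRT75, and at 52662395, 10.2 kb beyond that of KRT2, an epidermal keratin, were each other's nearest call over a distance of 226 kb. No start was called at either gene, which for the 5' ends follows from that distance. Across the genome 19 pairs of isolated calls were each other's nearest call, at a median distance of 34.0 kb and from 10.6 kb to 2.31 Mb, the widest lying on chromosome 18 between LINC01901 and LOC124904350. In 12 of the pairs both calls were on 1 strand, in 6 they ran apart and in 1 towards each other.

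No preference of isolated calls for a strand or a direction passed a test after adjustment. On the forward strand lay 235 of 443 (53.0%, 48.4 to 57.6), which was set against an equal split (exact binomial, two-sided, p = 0.217, adjusted over 3 tests 0.325). Towards the nearest gene ran 222 of 443 isolated calls (50.1%, 45.5 to 54.7) and 587 of 1140 other intergenic calls (51.5%, 48.6 to 54.4), a difference of -1.38 percentage points (95% interval -6.84 to 4.09, two-sided exact test of Fisher, adjusted over 6 tests p = 0.711). The nearest other call was on the same strand for 236 (53.3%, 48.6 to 57.9, exact binomial adjusted p = 0.325). It was the start of a protein-coding gene for 140 isolated calls (31.6%), lay elsewhere inside a gene for 120 (27.1%), was within 1000 bp of a gene end for 63 (14.2%), was another isolated call for 51 (11.5%), the start of a gene of another class for 44 (9.93%) and a non-isolated intergenic call for 25 (5.64%). Of the 207 nearest calls on the other strand, 120 faced the isolated call (57.97%, 51.2 to 64.5, exact binomial p = 0.0259) and 87 ran away from it. Towards the nearest protein-coding gene ran 247 of 443 isolated calls (55.8%, 51.1 to 60.3, exact binomial p = 0.0174). Both splits were tested after the data were seen, and neither passed when adjusted over 5 tests (exact binomial, adjusted p = 0.0647 for both). Where the nearest call was a coding start, 70 of 140 isolated calls were on its strand.

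The distance to that nearest call was 42.8 kb at the median, with quartiles of 20.8 and 107 kb. It was 10 to 20 kb for 107 isolated calls (24.2%), over 100 kb for 118 (26.6%) and over 1 Mb for 19 (4.29%). The call farthest from any other lay at 89400165 of chromosome X on the forward strand, 4.16 Mb from its neighbour and 2964 bp from the long noncoding RNA gene LOC102724150, towards which it ran. Among the next were 61349165 of chromosome 16 (2.66 Mb, nearest protein-coding gene the cadherin CDH8), 131725078 of chromosome 4 (2.63 Mb, the protocadherin PCDH10) and 114059115 of chromosome X (2.38 Mb, the serotonin receptor HTR2C). The 10 farthest also included the pair on chromosome 18, and calls nearest to LINC02759, DPP10 and LOC105372750 at 1.99, 1.94 and 1.67 Mb. At the 10 kb limit, the closest neighbours among members were 10.1 kb (near LOC124903756), 10.2 kb (ITGA4) and 10.3 kb (PIM3) away, and the calls just outside it had neighbours at 9.89 kb (EIF1), 9.80 kb (CTSB) and 9.74 kb (LOC124903558).

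**Figure D1:**
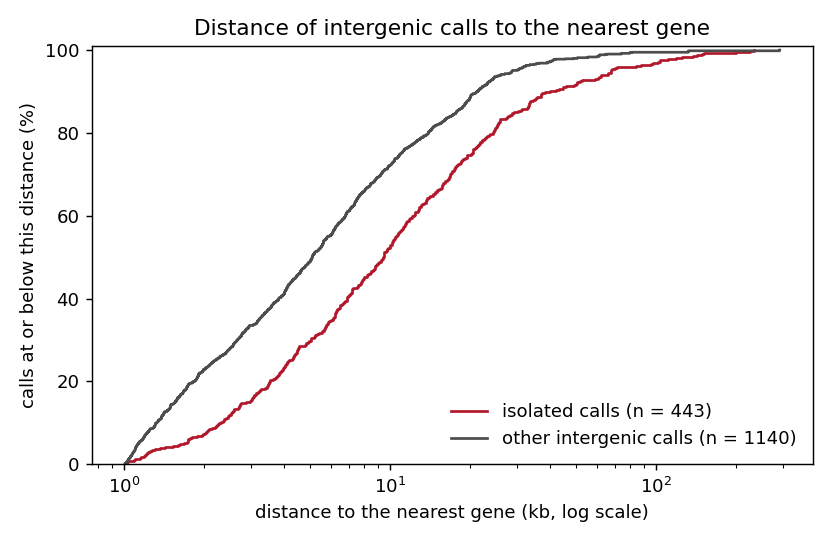
Cumulative share of calls (y axis, %) by distance to the nearest gene of any class (x axis, kb, log scale) for 443 isolated and 1140 other intergenic calls. The median is 9.44 kb for isolated calls and 5.10 kb for the others.

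Isolated calls lay farther from genes than other intergenic calls. The median distance to the nearest gene was 9.44 kb (quartiles 4.21 and 20.3) for isolated and 5.10 kb (2.19 and 11.0) for other calls, and to the nearest protein-coding gene 20.9 and 9.05 kb. More than 50 kb from every gene lay 37 of 443 isolated calls (8.35%, 6.12 to 11.3) and 23 of 1140 others (2.02%, 1.35 to 3.01), a difference of 6.33 points (3.89 to 9.36, odds ratio 4.43, Fisher's exact test, adjusted p = 9.08e-08). With other calls within 10 kb of each other counted once, their share was 1.52% of 525 (Fisher's exact test, adjusted p = 5.31e-07). The rule did not use distances beyond 1000 bp, but calls thin out away from genes, so that isolation and distance are linked. Among the 10 farthest were 139148801 and 139114775 of chromosome 8, both reverse, 235 and 201 kb from the collagen gene COL22A1, 142695548 of chromosome 2 (151 kb from UBE2V1P14) and 65963267 of chromosome 16 (149.9 kb from LOC107984823). A further 5 of the 10 lay 119 to 143 kb from LOC105377009, LINC02497, LOC105373598, MRPS36P3 and LINC02759. At the other limit, members lay 1013 bp from SPDYC, 1026 bp from SAFB2 and 1037 bp from LOC105370485, and otherwise isolated calls just inside the margin were 969 bp from TMEM183AP6, 935 bp from LOC101928105 and 932 bp from TTL.

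Per length of sequence, isolated calls also became rarer with distance. There were 70.1 isolated calls (exact Poisson interval 58.6 to 83.1) and 295 other calls (271 to 321) per 100 Mb of intergenic sequence 1 to 5 kb from a gene. At 5 to 20 kb the densities were 54.5 (47.2 to 62.6) and 124 (113 to 136), and at 20 to 50 kb 26.3 (20.7 to 32.9) and 38.2 (31.3 to 46.1). Between 50 and 100 kb they were 13.5 (8.58 to 20.3) and 10.01 (5.83 to 16.02), and over 100 kb 6.34 (3.47 to 10.6) and 2.72 (0.998 to 5.92). The intervals of isolated and other calls overlapped in each class beyond 20 kb. These intervals treat each call as independent. Other calls lie near each other, so that their intervals are too narrow and the overlap is no test. Sequence within 10 kb of another call cannot hold an isolated call. With such sequence left out, the densities of isolated calls in the 5 classes were 82.4, 57.1, 26.3, 13.5 and 6.34 per 100 Mb. Unsequenced stretches of the assembly were not removed.

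**Figure D2:**
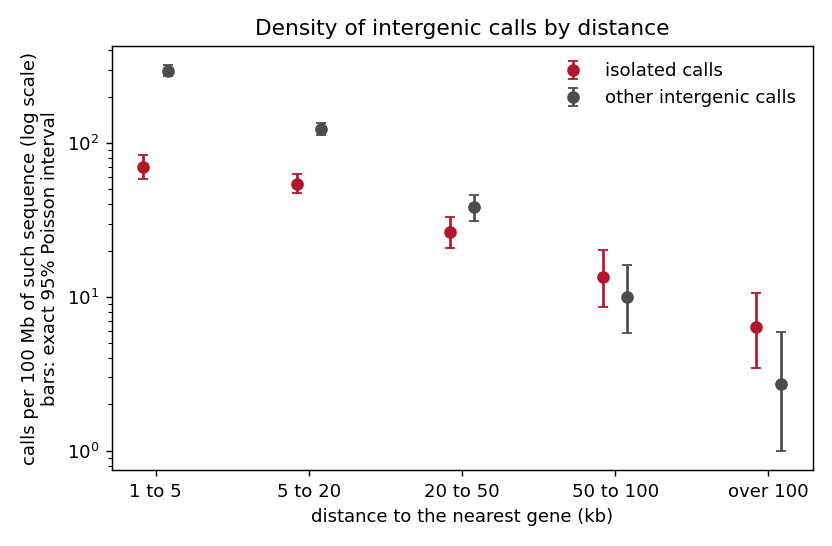
Number of isolated and other intergenic calls per 100 Mb of intergenic sequence (y axis, log scale) in 5 classes of distance to the nearest gene (x axis, kb), with exact 95% Poisson intervals. Both fall with distance, to 6.34 isolated and 2.72 other calls beyond 100 kb. The intervals treat each call as independent.

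The nearest gene was protein-coding for 186 of 443 isolated calls (42.0%, 37.5 to 46.6) and for 633 of 1140 other calls (55.5%, 52.6 to 58.4), a difference of -13.5 points (-18.9 to -8.06, Fisher's exact test, adjusted p = 2.80e-06). It was a long noncoding RNA gene for 155 (35.0%) and 297 (26.1%), and a pseudogene for 92 (20.8%) and 160 (14.0%). In the gene table's class of tRNA genes, 0 of 443 isolated calls had their nearest gene (which allows a share of up to 0.677% at 3 counts, with a Wilson upper limit of 0.860%) and 19 of 1140 other calls did (1.67%). The nearest gene of 1 isolated call, TRE-CTC14-1, is a tRNA copy that the table classes as a pseudogene. For genes of known strand, 99 of 250 isolated calls (39.6%, 33.7 to 45.8) and 378 of 673 others (56.2%, 52.4 to 59.9) lay beyond the 5' end rather than the 3' end (difference -16.6 points, -23.5 to -9.33, adjusted p = 1.25e-05, exact test), and 134 (53.6%) and 351 (52.2%) were on the gene's strand (difference 1.45, -5.79 to 8.60, adjusted p = 0.711). The last 2 comparisons were chosen after the data were seen. The rule bars isolated calls beside called starts, which bears on the shares for protein-coding genes and for 5' ends. Their p-values cannot separate the rule from a property of the calls.

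The rule removes calls beside called starts of any gene. These differences were also measured without the other calls near a called coding start. Other calls near called starts of noncoding genes stay in, so that the rule is accounted for only in part. Of the other intergenic calls, 360 of 1140 (31.6%) had a called coding start within 10 kb, which no isolated call can have. Against the 780 without one, the nearest gene was protein-coding for 42.0% of isolated and 42.4% of other calls (difference -0.449 points, -6.15 to 5.32, Fisher's exact test, adjusted over 6 tests p = 1), and 39.6% and 41.5% lay beyond a 5' end (difference -1.94, -9.61 to 5.87, adjusted p = 1). The share over 50 kb from every gene still differed, at 8.35% and 2.95% (difference 5.40, 2.75 to 8.51, Fisher's exact test, adjusted p = 0.000142). This test counts each other call singly, though such calls lie near each other. It was not repeated with linked calls counted once. A called coding start within 50 kb was found for 173 of 443 isolated calls (39.1%, 34.6 to 43.7) and 418 of these 780 others (53.6%, 50.1 to 57.1, difference -14.5, -20.2 to -8.74). Over all 1140 others the share was 68.2%. Called coding starts are themselves calls, so this share moves with the call density on which the rule selects. It is given as a description, without a test. In classes of gene distance, with all others included, the nearest gene was protein-coding for 44.7% of isolated and 63.3% of other calls at 1 to 5 kb; in this class the rule removes isolated calls beside a called start of the nearest gene, and no test is given. At 5 to 20 kb the shares were 44.7% and 46.5%. The rule still acts there up to 10.5 kb from the gene, and no test is given. Beyond 20 kb the shares were 33.9% and 53.8% (Fisher's exact test, p adjusted over 15 tests 0.00602). That test also counts each other call singly, so its p-value can be too small. It was not repeated with linked calls counted once. These comparisons were chosen after the data were seen.

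**Figure D3:**
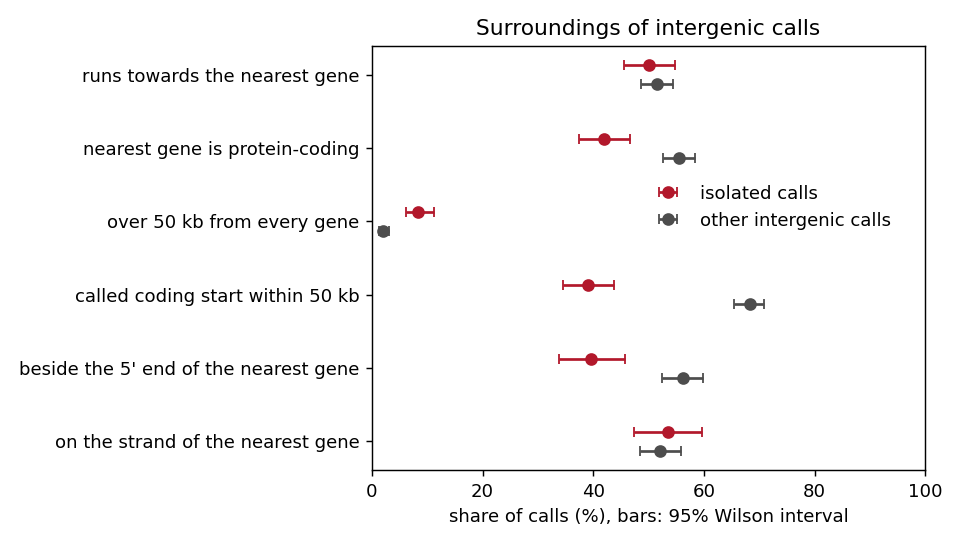
Share of calls (x axis, %) with each of 6 features, for 443 isolated and 1140 other intergenic calls, as points with 95% Wilson intervals. The last 2 features count 250 isolated and 673 other calls whose nearest gene has a known strand. A coding start lay within 50 kb of 39.1% of isolated calls and 68.2% of other calls, or 53.6% of other calls without one within 10 kb, where the rule allows isolated calls none. For direction both shares are close to 50%.

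Of the 250 isolated calls whose nearest gene has a known strand, more lay beyond its 3' end than its 5' end. On the gene's strand downstream were 79 isolated calls (31.6%, 26.2 to 37.6) and 21.7% of the 673 other calls. Downstream on the other strand were 72 (28.8%, 23.5 to 34.7) and 22.1%, upstream on the same strand 55 (22%, 17.3 to 27.5) and 30.5%, and upstream on the other strand 44 (17.6%, 13.4 to 22.8) and 25.7%. The rule removes isolated calls close to a called start, and these 4 shares were not tested. Beside long noncoding RNA genes 39 of 103 isolated calls were downstream on the same strand (37.9%, 29.1 to 47.5) and 26.5% of other calls, and beside protein-coding genes 40 of 146 (27.4%, 20.8 to 35.1) and 20.1%. Examples close to a protein-coding gene and running towards its 3' end were at C9orf152 (1047 bp), MYO1A, an intestinal myosin (1098 bp), the zinc finger gene ZNF653 (1150 bp), FAM114A2 (1421 bp) and DNAJB6, a co-chaperone (1533 bp). The nearest running away from a gene were at SPDYC (1013 bp), SAFB2 (1026 bp), the DNA sensor gene CGAS (1157 bp), the TGF-beta family receptor gene ACVRL1 (1207 bp), the kinase gene TESK1 (1215 bp), SMAD6, an inhibitor of BMP signalling (1230 bp), TRIM71 (1592 bp), EVA1C (1718 bp), SPC24, a kinetochore subunit (2027 bp), and BHLHA9 (2141 bp). The calls at SPDYC, TESK1, SMAD6, TRIM71 and BHLHA9 ran outward from the 5' end on the other strand, and those at SAFB2, SPC24 and EVA1C outward from the 3' end on the gene's strand. The table used gives no strand for CGAS and ACVRL1.

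Most of the sequence between genes that held an isolated call held exactly 1. The 443 calls fell into 427 intervals between neighbouring genes, of which 412 held 1 call, 14 held 2 and 1 held 3. The intervals had a median length of 40.2 kb (quartiles 21.6 and 77.9). Isolated calls lie more than 10 kb apart by the rule, which limits how many a short interval can hold. The interval with 3 lies between PIK3CG, a phosphoinositide kinase of blood cells, and PRKAR2B on chromosome 7, with forward calls 65.9 and 37.1 kb and a reverse call 15.5 kb beyond the 5' end of PRKAR2B, whose own start was called at 107044731. CITED2 and ZEB2 were also the nearest protein-coding gene to 3 isolated calls each. CITED2, a co-regulator that binds CBP and p300, had calls 251, 274 and 323 kb beyond its 5' end, each separated from it by other gene entries and by no nearer called coding start. ZEB2, a zinc finger repressor, had 1 call at 75004 bp and a pair more than 1 Mb away. Intervals with 2 isolated calls included that between the claudin genes CLDN3 and CLDN4, that between COL22A1 and the potassium channel gene KCNK9, that between LOC105378010 and MYB, and that between LINC02283 and LINC02260, upstream of KIT.

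Genes of 7 lists, erythroid ones as well as those of other lineages and of DNA replication, were set against all protein-coding genes. Over all protein-coding genes, 666 of 19821 (3.36%) had an isolated call within 50 kb of the gene and 1190 (6.00%) within 100 kb. Of 143 genes in 7 lists, 10 had one within 50 kb (6.99%, 3.84 to 12.4) and 19 within 100 kb (13.3%, 8.67 to 19.8). The lists were chosen with earlier results of these data known, their genes can share a call, and no test was made of them. Within 50 kb the count was 2 of 10 globin genes, which share 1 call, 2 of 22 erythroid transcription factors, 2 of 20 genes of haem and iron, 1 of 29 genes of red cell membrane and blood groups, 1 of 18 genes of erythroid cytokine signalling, 2 of 22 transcription factors of progenitors and other lineages, and 0 of 24 genes of DNA replication and mitosis (0 to 13.8%).

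Among erythroid transcription factors, MYB, which keeps progenitors dividing, and GATA1, the master regulator of red cell genes, had isolated calls within 50 kb. Forward calls lay 19.4 kb (135161876 of chromosome 6) and 36.4 kb (135144886) beyond the 5' end of MYB on its strand, 17.0 kb from each other and each the other's nearest call. A reverse call lay 84.1 kb away (135097200). This stretch between HBS1L and MYB is known to carry enhancers of MYB. The call near GATA1 was forward, 49.2 kb beyond its 5' end at 48737416 of chromosome X, and 12.9 kb from its nearest gene, RNU6-1056P. Both genes had called starts.

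Of the genes of erythroid signalling, CISH, a feedback inhibitor of cytokine receptors, had a call 5264 bp beyond its 3' end on the other strand, at 50601225 of chromosome 3, 5059 bp from HEMK1. KIT, the receptor for stem cell factor, had forward calls 69.3 and 86.1 kb beyond its 5' end (54588654 and 54571822 of chromosome 4), 16.8 kb apart and each the other's nearest call. KITLG, its ligand, had no called start and 1 isolated call 67.2 kb beyond its 3' end, 283 kb from any other call. Calls 75.5 kb from PTPN6 and 98.0 kb from EPOR, the erythropoietin receptor, ran away from those genes.

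Of the haem and iron genes, FTL, the ferritin light chain, had a forward call 38.1 kb beyond its 5' end (48927204 of chromosome 19). The nearest gene to that call was NUCB1, 3.83 kb away. TFRC, the transferrin receptor, had a call 45.7 kb beyond its 5' end that ran away from it (196127830 of chromosome 3). That call lay 14.8 kb from LINC00885, towards which it ran. BSG, which encodes basigin, had one 15046 bp upstream on its own strand (556237 of chromosome 19), nearer to GZMM (6.3 kb). CD47 and BCAM had calls 59.4 and 73.8 kb away, both upstream and on the gene's strand. The genes nearest to them were IFT57 (10.3 kb) and CEACAM16-AS1 (10.1 kb). The single isolated call of the beta-globin region lay at 5303692 of chromosome 11 on the reverse strand, the strand of HBD in the promoter table, 33.7 kb from HBE1 and 48.9 kb from HBG2, and 1746 bp from the olfactory receptor gene OR51B4. Within 100 kb it counted for 5 globin genes, HBG1, HBD and HBB included. Its nearest neighbour was 15.4 kb away.

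Outside the erythroid lists, CEBPE, a factor of granulocytes with no called start, had a call 4186 bp beyond its 3' end on the other strand, and HLF, a factor of stem cells, had a forward call 26.4 kb upstream. Of 9 pairs of a listed gene of known strand and an isolated call within 50 kb, 6 had the call upstream on the gene's strand (66.7%, 35.4 to 87.9). Over all protein-coding genes this held for 142 of 576 pairs (24.7%, 21.3 to 28.3), and for those with a called start for 76 of 308 (24.7%, 20.2 to 29.8). The comparison was made after the positions were seen, and it rests on 9 pairs. In some of these pairs, among them those of FTL and BSG, another gene lay nearer to the call.

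**Figure D4:**
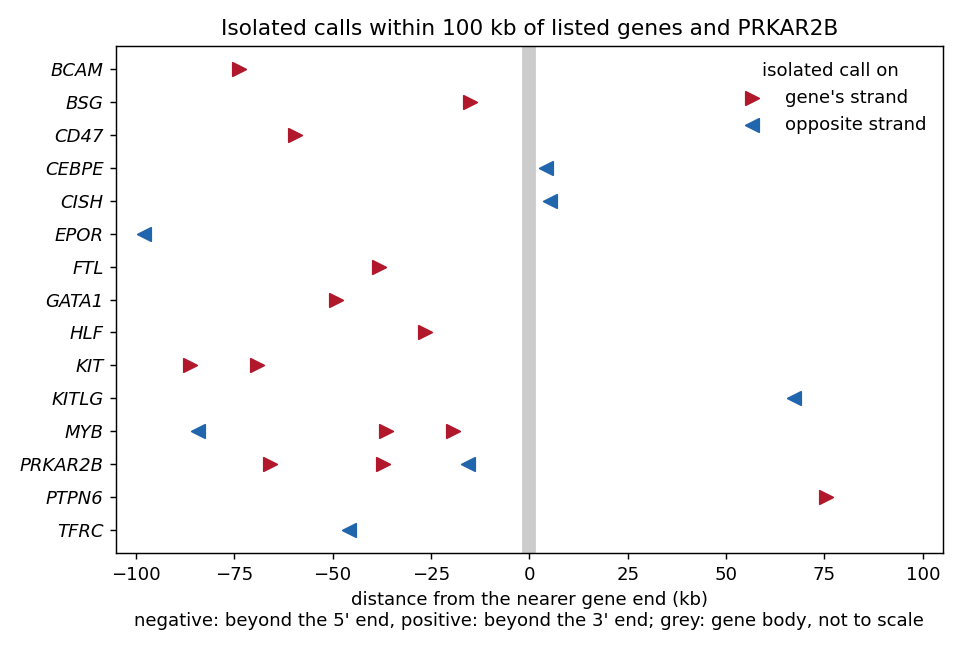
Isolated calls within 100 kb of listed genes of known strand, and of PRKAR2B. The x axis gives the distance from the nearer gene end in kb, negative beyond the 5' end, and each row is 1 gene. Right-pointing red triangles are calls on the gene's strand and left-pointing blue triangles calls on the other. MYB and PRKAR2B have 3 calls upstream, 2 of them on the gene's strand, and KIT has 2.

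The share of all calls that were isolated ran from 0.915% on chromosome 19 (19 of 2076, 0.587 to 1.43) to 3.19% on chromosome 18 (15 of 470, 1.94 to 5.20), with 2.94% on chromosome X (18 of 612, 1.87 to 4.60). Of the intergenic calls, 46.9% were isolated on chromosome 18, 47.3% on chromosome 3 and 45% on chromosome X, and 15.4% on chromosome 19 and 15.4% on chromosome 10. The largest numbers were 50 on chromosome 1, 39 on chromosome 2 and 35 on chromosome 3, and the smallest was 3 on chromosome 21. Gene density and call density differ between these chromosomes, and their part in the shares was not tested.

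**Figure D5:**
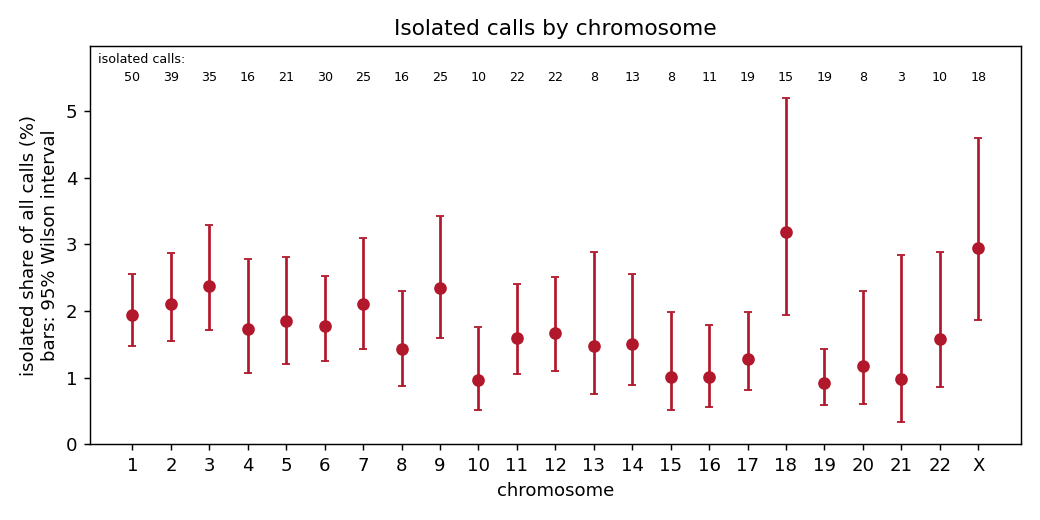
Isolated calls as a share of all calls on each chromosome (y axis, %), with 95% Wilson intervals and the number of isolated calls above each. Chromosome 18 is highest at 3.19% and chromosome 19 lowest at 0.915%.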

How the data were processed

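Per the labels, nuclei of wild-type HUDEP-2 gave PRO-cap libraries for 2 biological replicates. Per the submitters' processing notes, the tools were deepTools 3.5.4, SAMtools 1.17, Picard and BWA 0.7.16a, with build hg38. The threshold of the calls and any pooling are not stated in the sources used. The position columns deposited by the authors hold coordinates of 1 base (no other measurement), and their score column reads 0 in each of 26395 lines.

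The 26332 calls on chromosomes 1 to 22 and X were set against 58419 genes of RefSeq GRCh38.p14, after removal of 679 entries on other scaffolds, with Python 3.11.15, pandas 2.3.3 and scipy 1.17.1. Positions are column 3 of the lists. Gene strand came from the RefSeq promoter and hairpin tables and was known for 79.8% of protein-coding genes. A gene had a called start where a call within 500 bp of either outer end ran into it. Shares were compared by Fisher's exact test, two-sided, with Benjamini-Hochberg adjustment over 6 tests at 0.05. Alternatives were isolation distances of 5 and 20 kb, a margin of 5000 bp, linked calls counted once, coding genes only, and 100 kb. Densities used positions sampled every 100 bp. The steps were tested on simulated calls. Planned tests of sequence at the calls were not run, since no sequence around them was used here.

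Members and lists were chosen with earlier results of these data known. Named were the 10 calls farthest from genes, the 10 farthest from other calls, calls whose nearest coding gene is listed, the 10 closest to a coding gene in each direction, coding genes nearest to at least 3 calls, and calls at both limits; 1 of these calls is not reported here. Upstream same-strand calls and microRNAs were added after the data were seen.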

Additional observations from a re-analysis of the deposited data

Results flagged for a closer look

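Calls on sequences other than chromosomes 1 to 22 and X lay outside all comparisons and numbered 63. Of these, 29 had no other call within 10 kb on the same sequence.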

How the results depend on the processing

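Of 40 alternative values, 33 counted as unchanged. For shares this means the same direction and side of the threshold, and for the number of isolated calls only a count of similar size. The tally includes the share with a called coding start within 50 kb, which moves with the call density on which the rule selects. With a margin of 5000 bp the differences in the nearest gene being protein-coding (-7.28 points) and in lying beyond a 5' end (-9.96 points) no longer passed Fisher's exact test (adjusted p = 0.0615 for both), and with calls near coding starts left out, by which fewer other calls were tested, they were -0.449 and -1.94 points. Counting the nearest protein-coding gene turned the difference in direction to 4.88 points (exact test, adjusted p = 0.0992), and counting linked calls once turned that in strand to -1.30 points (adjusted p = 0.802); neither difference passed in any setting, and the cause was not tested. Within 100 kb 19 listed genes had an isolated call. The number of isolated calls was 538 at 5 kb, 336 at 20 kb and 311 with a margin of 5000 bp. No paired analysis was possible because the lists hold 1 group and no replicate, and leaving out a replicate was not possible for the same reason. Call strength is unknown, so that a partner below the threshold cannot be told from a missing one. Both calls of a pair enter the other intergenic calls.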
